A study of Mus musculus with 9 samples.

Results

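The genes of the major histocompatibility complex (MHC) and of antigen presentation were followed as 10 named genes, which make up 10 of the 55414 Ensembl features in the deposited table. They were chosen by name: the class I heavy chains H2-K1 and H2-D1, their light chain B2m, the loading factors Tap1 and Tapbp, the class II chains H2-Aa, H2-Ab1 and H2-Eb1, the invariant chain Cd74 and the class II coactivator Ciita. All 10 have 1 row each in the table, and 7 lie on chromosome 17 of the mouse, with B2m on chromosome 2, Ciita on chromosome 16 and Cd74 on chromosome 18. Liver RNA came from NSG mice, an immunodeficient NOD strain with the scid and Il2rg mutations, in 3 groups of 3 libraries. The first received extracellular vesicles (EVs) from the breast cancer cell line MDA-MB-231 through the tail vein over 5 weeks. Another received EVs from MCF-10A, a line of breast epithelium that forms no tumours, and the third received phosphate-buffered saline (PBS) in the same way; both lines are human. All 9 libraries are labelled WT for genotype, beside the mutations of the strain, and the sources used here give neither sex nor age. The labels do not say that each library came from a separate mouse, and p-values here cover no more than library-to-library spread, which may be technical.

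MHC class I molecules carry peptides from inside the cell to its surface and are made by nearly all nucleated cells, hepatocytes included. Their peptides are cut by the proteasome, moved into the endoplasmic reticulum by the Tap1 and Tap2 transporter and loaded with the help of tapasin, the product of Tapbp. MHC class II molecules carry peptides from endocytosed material and are made mainly by dendritic cells, macrophages and B cells, with Cd74 guarding the peptide groove until it is cut away by cathepsins. Ciita switches on the class II genes, and Nlrc5 is its counterpart for class I. The NOD background has its own MHC haplotype, with class I products Kd and Db and no surface I-E. The mouse reference genome is of C57BL/6, and which of these products differ between the strains was not examined here. The sources used here do not say how reads of these alleles were assigned, so levels of different H2 genes may carry that difference, and reads shared between H2-K1, H2-D1 and the H2-Q and H2-T genes may have been split between them.

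The sequences before the gene starts are shown for 5 genes because B2m and H2-K1 moved together over the libraries and the class II genes shared their highest libraries, whereas H2-D1 was highest in other libraries than H2-K1. Each is the 200 bases before the start in RefSeq (GRCm38.p6, a different build from the GRCm39 of the authors), and 7 of the 10 genes have an entry. H2-K1 has 2 starts there, of which the first listed was used, so distances to its start depend on that choice. Capitals mark the words ATTGG (the core of the CCAAT or Y box), TGACG (the core of the X2 box), GGGATTCCC (the kappaB core of the class I enhancer) and TTTCACTT (a piece of the interferon response element) on either strand. H2-K1 (chr17:34000348-34000547, minus strand) and H2-D1 (chr17:35262894-35263093, plus strand) hold all 4 words. B2m (chr2:122147487-122147686, plus strand) and H2-Aa (chr17:34287824-34288023, minus strand) hold ATTGG and TGACG. H2-Eb1 (chr17:34305667-34305866, plus strand) holds ATTGG, once on each strand.
H2-K1: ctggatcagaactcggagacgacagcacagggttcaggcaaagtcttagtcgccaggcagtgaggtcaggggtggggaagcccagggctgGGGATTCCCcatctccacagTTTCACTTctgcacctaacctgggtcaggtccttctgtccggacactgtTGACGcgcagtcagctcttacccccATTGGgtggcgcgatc
H2-D1: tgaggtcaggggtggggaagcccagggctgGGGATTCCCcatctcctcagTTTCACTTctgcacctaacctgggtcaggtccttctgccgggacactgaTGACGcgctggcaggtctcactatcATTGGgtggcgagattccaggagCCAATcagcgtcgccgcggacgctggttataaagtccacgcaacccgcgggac
B2m: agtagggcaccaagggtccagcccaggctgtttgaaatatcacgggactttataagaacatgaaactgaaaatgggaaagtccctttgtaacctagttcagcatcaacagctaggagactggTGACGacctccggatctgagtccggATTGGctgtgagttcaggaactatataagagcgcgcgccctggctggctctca
H2-Aa: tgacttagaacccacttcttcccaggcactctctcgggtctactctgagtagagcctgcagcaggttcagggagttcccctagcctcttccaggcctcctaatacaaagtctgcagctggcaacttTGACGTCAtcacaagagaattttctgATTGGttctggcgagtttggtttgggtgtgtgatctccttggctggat
H2-Eb1: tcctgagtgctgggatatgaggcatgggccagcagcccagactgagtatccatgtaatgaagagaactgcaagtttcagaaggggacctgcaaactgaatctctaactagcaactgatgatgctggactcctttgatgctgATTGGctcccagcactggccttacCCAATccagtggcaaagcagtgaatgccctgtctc
Of 32851 windows of this length before RefSeq gene starts, 29.3% hold ATTGG, 15.7% TGACG, 1.03% TTTCACTT and 0.213% GGGATTCCC. In H2-Aa the matches to TGACG on the opposite strands overlap. TGACG stood 70 to 74 bases before the start of H2-Aa and 74 to 78 bases before that of B2m, each with ATTGG nearer the start. In an alignment of the windows of H2-K1 and H2-D1, 127 of 140 aligned bases were the same (90.7%). For H2-K1 and B2m 96 of 153 were the same (62.7%), and for H2-Aa and H2-Eb1 85 of 136 (62.5%). These are sequences of the reference strain. A match to such a word describes the sequence and does not show that a factor binds there. Only exact matches were marked, so a window without a word may still hold a variant of it.

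Levels are given in TPM, a measure of transcript abundance that takes transcript length and library total into account, so levels of different genes can be set side by side. TPM keeps no read depth, and no counting interval can be given. Between 17403 and 20070 Ensembl features were above 0 per library. Mitochondrially encoded genes held 26.3% of TPM in PBS 1 and between 4.96% and 12.1% in the other 8 libraries. Albumin (Alb) was between 13114 and 65814 TPM, so that the hepatocyte marker was abundant in every library, and of 7 T and NK cell markers Cd3g alone was listed at 0 TPM in each of the 9. Libraries MDA-MB-231 EV 3 and PBS 1 differed from the rest of their groups, for example in the scavenger receptor gene Stab1, at 174 TPM in MDA-MB-231 EV 3 and 121 TPM in PBS 1 and at most 60.8 TPM elsewhere. PBS 2 stood apart by fat genes: Cfd, the complement factor adipsin, was at 285 TPM there and at most 5.30 TPM elsewhere. MCF-10A EV 1 stood apart by the monocyte and macrophage gene Chil3, at 117 TPM against at most 1.65 TPM elsewhere, and by Clec4f, the Kupffer cell lectin, at 0.61 TPM against at least 96.5 TPM.

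By mean level over the 9 libraries the order was B2m (3579 TPM), H2-K1 (1250), H2-D1 (455), Tapbp (74.6), Cd74 (51.6), H2-Aa (25.5), H2-Ab1 (25.2), H2-Eb1 (17.7), Tap1 (6.17) and Ciita (0.18 TPM). B2m exceeded H2-K1 in 9 of 9 libraries, by 2.23 to 3.43 times, and ranked 33rd of the 12860 genes tested. H2-K1 exceeded H2-D1 in 8 of 9. Cd74 exceeded H2-Aa in 9 of 9 libraries, by 1.21 to 2.61 times. H2-Aa and H2-Ab1 could not be ordered, with H2-Aa higher in 4 of 9 libraries, and H2-Ab1 exceeded H2-Eb1 in 6 of 9. Tapbp and Cd74 changed places between libraries too, with Tapbp higher in 7 of 9, as did H2-Eb1 and Tap1, with H2-Eb1 higher in 7 of 9. By mean level the class II chains and Cd74 thus lay below the class I chains and Tapbp, and Ciita was lowest, at no more than 0.34 TPM in any library.

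**Figure D1:**
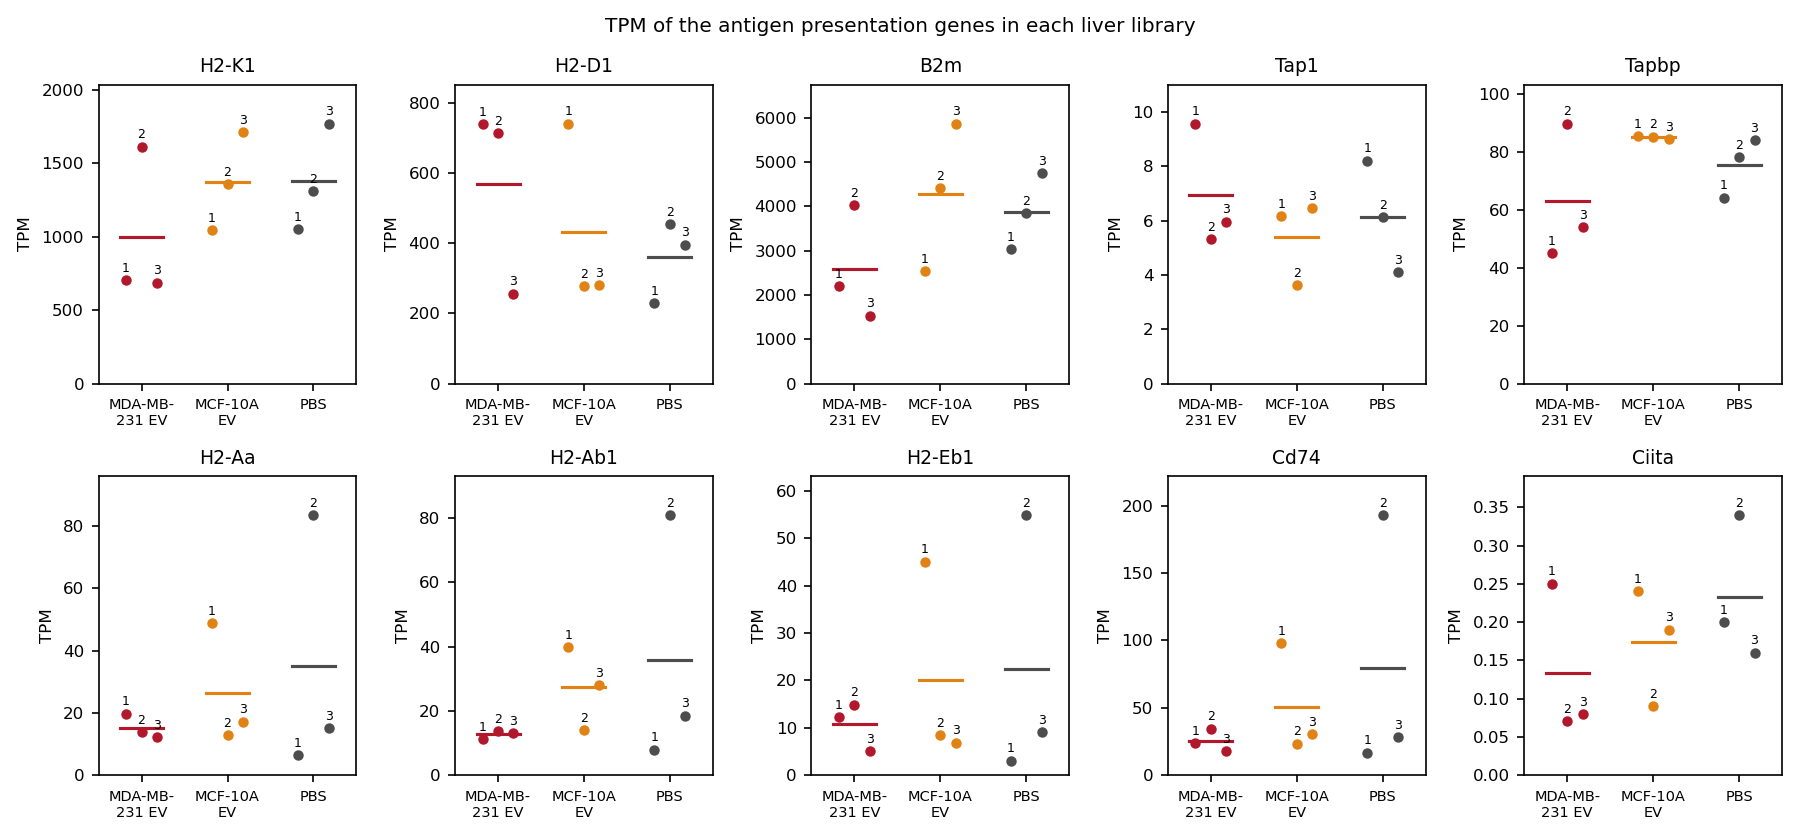
TPM (linear axes from 0) of the 10 genes in each library, with the library number beside each point and a bar at the group mean; 3 libraries per group. The 4 class II genes are highest in PBS 2 and next in MCF-10A EV 1, whereas H2-K1 and B2m are lowest in MDA-MB-231 EV 3 and 1.

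The class I heavy chain H2-K1, which encodes the peptide-binding chain, was at 703, 1613 and 687 TPM after MDA-MB-231 EVs, at 1044, 1360 and 1713 TPM after MCF-10A EVs and at 1053, 1310 and 1770 TPM after PBS. MDA-MB-231 EV 1 and 3 were the lowest of the 9 libraries, and MDA-MB-231 EV 2 lay among the highest. B2m, the light chain that every class I molecule needs, was at 2202, 4024 and 1533 TPM after MDA-MB-231 EVs, at 2532, 4407 and 5875 TPM after MCF-10A EVs and at 3030, 3848 and 4760 TPM after PBS. It had the same 2 lowest libraries. For MDA-MB-231 EV versus PBS the log2 change was -0.55 ± 0.46 (SE; 95% interval -1.58 to 0.48) for H2-K1 and -0.68 ± 0.50 (-1.79 to 0.43) for B2m, on the scale log2(TPM + 1). For MDA-MB-231 EV versus MCF-10A EV it was -0.55 ± 0.46 (-1.58 to 0.48) for H2-K1 and -0.76 ± 0.50 (-1.87 to 0.35) for B2m. Leaving out MDA-MB-231 EV 2 gave changes against PBS of -0.95 for H2-K1 and -1.05 for B2m, and leaving out MDA-MB-231 EV 3 gave -0.34 and -0.36. Neither gene passed in either comparison (limma adjusted p = 1), and the groups overlapped.

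H2-D1, the other classical heavy chain, had a different pattern. It was at 741, 714 and 257 TPM after MDA-MB-231 EVs, at 743, 278 and 280 TPM after MCF-10A EVs and at 230, 455 and 397 TPM after PBS. The libraries MDA-MB-231 EV 1 and 2 and MCF-10A EV 1 were between 714 and 743 TPM and the other 6 at most at 455 TPM. The log2 change was 0.57 ± 0.57 (95% interval -0.70 to 1.84) in MDA-MB-231 EV versus PBS and 0.41 ± 0.57 (-0.86 to 1.68) versus MCF-10A EV, with a limma adjusted p of 1 in each. Against PBS it was 1.07 without MDA-MB-231 EV 3 and 0.28 without PBS 1. The ratio of H2-K1 to H2-D1 was 0.948, 2.26 and 2.67 after MDA-MB-231 EVs, 1.41, 4.89 and 6.12 after MCF-10A EVs and 4.59, 2.88 and 4.46 after PBS. Every MDA-MB-231 EV library was below every PBS library in this ratio, the closest pair being 2.67 and 2.88, and the ratio was formed after the values were seen and was not tested. Whether shared reads or allele differences between these near copies enter it was not tested.

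**Figure D2:**
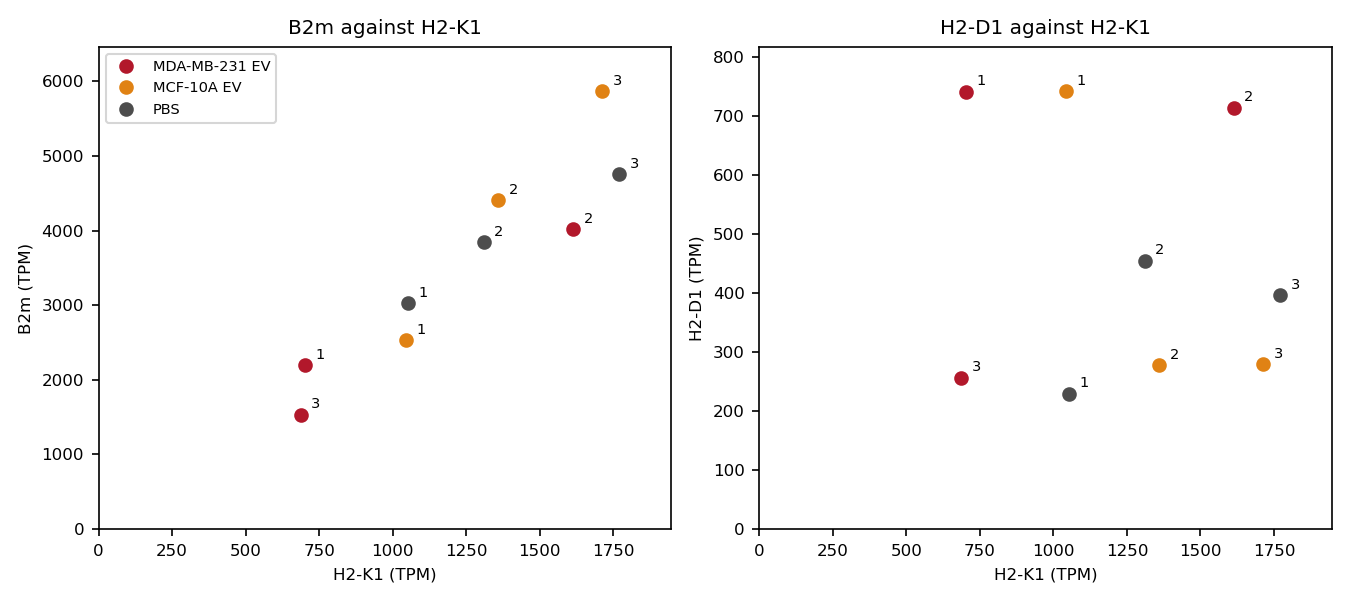
TPM of B2m (left) and H2-D1 (right) on the vertical axes against TPM of H2-K1 on the horizontal axes, linear axes from 0, 1 point per library with its number, coloured by group. B2m runs with H2-K1 over the 9 libraries, whereas H2-D1 is at 714 to 743 TPM in 3 libraries whose H2-K1 ranges from 703 to 1613 TPM.

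Tap1, a subunit of the peptide transporter, was at 9.58, 5.32 and 5.96 TPM after MDA-MB-231 EVs, at 6.16, 3.62 and 6.47 TPM after MCF-10A EVs and at 8.21, 6.12 and 4.10 TPM after PBS. The groups overlapped, with log2 changes of 0.16 ± 0.40 in MDA-MB-231 EV versus PBS and 0.30 ± 0.40 versus MCF-10A EV. The Tap1 and Psmb9 gene models lie on opposite strands and overlap by 212 bases in GENCODE M21, and the library kit's strandedness is not stated, so reads there cannot be told apart. Tapbp was at 45.1, 89.9 and 54.1 TPM after MDA-MB-231 EVs, at 85.6, 85.3 and 84.6 TPM after MCF-10A EVs and at 64.3, 78.3 and 84.2 TPM after PBS. Its MCF-10A EV libraries all lay above the PBS libraries, the closest pair being 84.6 and 84.2 TPM. The log2 changes of Tapbp were -0.31 ± 0.38 in MDA-MB-231 EV versus PBS, -0.49 ± 0.38 in MDA-MB-231 EV versus MCF-10A EV and 0.18 ± 0.38 for MCF-10A EV versus PBS. None passed (limma adjusted p = 1).

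The class II genes were highest in a single library each of the PBS and MCF-10A EV groups. H2-Aa, the alpha chain of I-A, was at 19.7, 13.9 and 12.1 TPM after MDA-MB-231 EVs, at 48.7, 12.8 and 17.1 TPM after MCF-10A EVs and at 6.36, 83.6 and 15.1 TPM after PBS. Its partner H2-Ab1, the beta chain, was at 11.1, 13.7 and 13.1 TPM after MDA-MB-231 EVs, at 39.8, 14.0 and 28.0 TPM after MCF-10A EVs and at 7.85, 80.9 and 18.4 TPM after PBS. PBS 2 was the highest library for each, MCF-10A EV 1 the second and PBS 1 the lowest. H2-Eb1, the beta chain of I-E, was at 12.2, 14.9 and 5.08 TPM after MDA-MB-231 EVs, at 45.1, 8.35 and 6.83 TPM after MCF-10A EVs and at 3.03, 54.9 and 9.10 TPM after PBS. Cd74 was at 23.7, 34.3 and 17.5 TPM after MDA-MB-231 EVs, at 97.9, 23.2 and 30.4 TPM after MCF-10A EVs and at 16.6, 193 and 28.0 TPM after PBS. All 4 genes had the same highest, second and lowest library, and the part of the high mitochondrial share of PBS 1 in its low values was not tested. Set against the median of the other 7 libraries, PBS 2 was 6.03-fold for H2-Aa, 5.93-fold for H2-Ab1, 6.58-fold for H2-Eb1 and 8.13-fold for Cd74. The same folds of MCF-10A EV 1 were 3.52, 2.91, 5.40 and 4.13. The MDA-MB-231 EV libraries held no such high library, and their summed level of the 4 genes lay between 47.8 and 76.7 TPM, against 58.4 to 231.5 TPM after MCF-10A EVs and 33.8 to 412 TPM after PBS.

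None of the class II genes passed in any comparison (limma adjusted p = 1). The log2 changes for MDA-MB-231 EV versus PBS were -0.44 ± 0.81 (95% interval -2.22 to 1.35) for H2-Aa, -0.83 ± 0.71 (-2.41 to 0.75) for H2-Ab1, -0.28 ± 0.95 (-2.38 to 1.82) for H2-Eb1 and -0.87 ± 0.84 (-2.73 to 0.99) for Cd74. Without PBS 2 all 4 turned above 0, to 0.55 for H2-Aa, 0.05 for H2-Ab1, 0.76 for H2-Eb1 and 0.16 for Cd74. Without both PBS 1 and MDA-MB-231 EV 3 they were -1.07, -1.58, -0.72 and -1.34 in the same order of genes. The changes for MDA-MB-231 EV versus MCF-10A EV were -0.54 ± 0.81 for H2-Aa, -0.94 ± 0.71 for H2-Ab1, -0.47 ± 0.95 for H2-Eb1 and -0.74 ± 0.84 for Cd74. H2-Ab1 had no overlap there, with every MDA-MB-231 EV library below every MCF-10A EV library, the closest pair being 13.7 and 14.0 TPM. Without MCF-10A EV 1 the changes of H2-Aa and H2-Eb1 turned to 0.01 and 0.34. In MCF-10A EV versus PBS the changes lay between -0.13 ± 0.84 for Cd74 and 0.19 ± 0.95 for H2-Eb1. Ciita was at 0.25, 0.07 and 0.08 TPM after MDA-MB-231 EVs, at 0.24, 0.09 and 0.19 TPM after MCF-10A EVs and at 0.20, 0.34 and 0.16 TPM after PBS, under the minimum mean of 1 TPM. With no minimum its log2 change was -0.12 ± 0.09 in MDA-MB-231 EV versus PBS (limma adjusted p = 1).

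Over the whole set, 0 of the 9 tested genes passed in any comparison, by limma at an adjusted p under 0.05. Of all tested genes 0 of 12860 passed in MDA-MB-231 EV versus PBS (0%), 28 in MDA-MB-231 EV versus MCF-10A EV (0.218%) and, for MCF-10A EV versus PBS, 25 (0.194%). At an unadjusted p under 0.05 there were 0 of the 9 genes in each comparison, against 1.55%, 3.83% and 3.2% of all tested genes in the same order of comparisons. Groups that did not overlap numbered 0 of 9 in MDA-MB-231 EV versus PBS, 1 of 9 in MDA-MB-231 EV versus MCF-10A EV (H2-Ab1) and 1 of 9 in MCF-10A EV versus PBS (Tapbp), where 6.03%, 6.53% and 7.69% of all tested genes did not overlap. The exact two-sided permutation test of 3 against 3 libraries cannot go below p = 0.1, which is its value for the 2 genes without overlap. Of the 9 changes 2 were above 0 for MDA-MB-231 EV versus PBS, and their median was -0.44 beside a median of 0.21 over all tested genes, of which 69.74% were above 0. With MCF-10A EV as the other group, 2 of the 9 changes of MDA-MB-231 EV were above 0, with a median of -0.54 beside 0.17. For MCF-10A EV versus PBS 6 of 9 were above 0, with a median of 0.11 beside 0.07. Each pair of these comparisons shares the 3 libraries of a group.

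**Figure D3:**
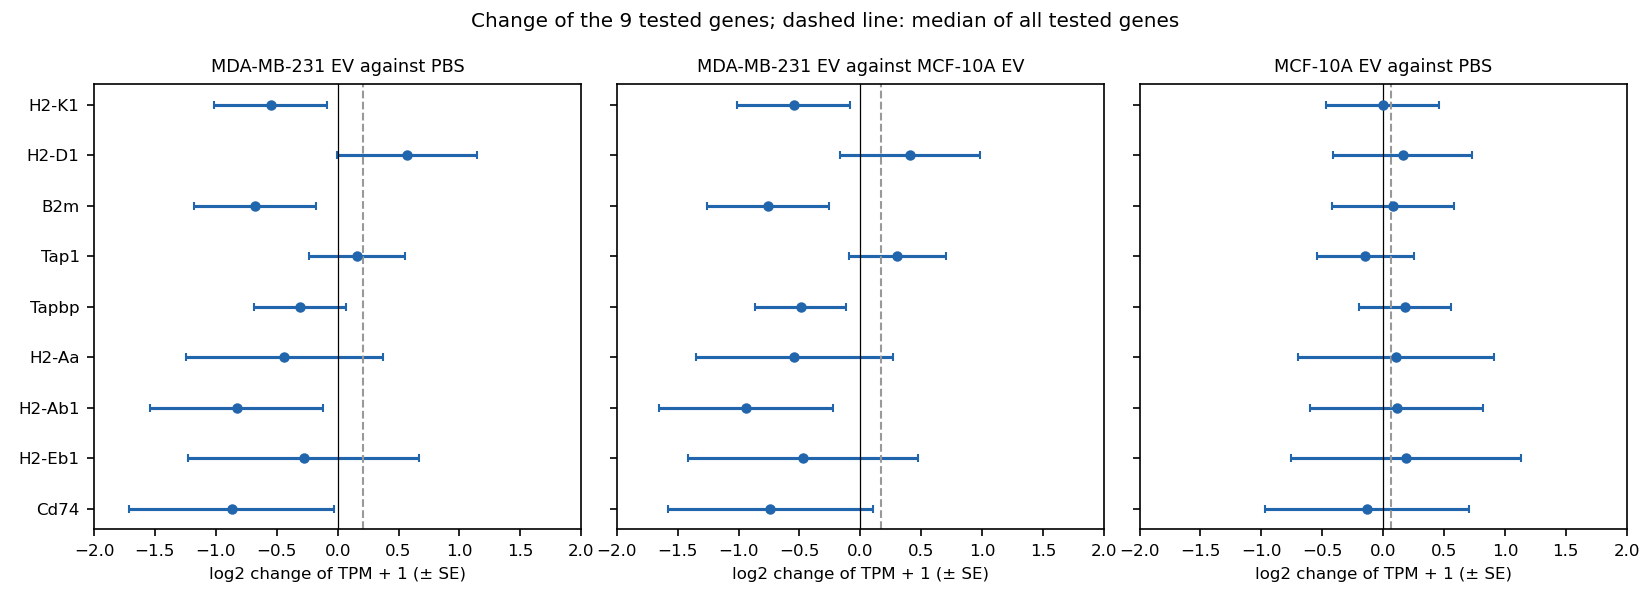
Log2 change of TPM + 1 (horizontal axes) with its SE from limma for the 9 tested genes in each comparison; the dashed line is the median of all tested genes and the solid line is 0. In both comparisons of MDA-MB-231 EV 7 of 9 points lie below 0, and in MCF-10A EV versus PBS all lie between -0.15 and 0.19.

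Of the marker lists of other cells, the fat sum was highest in PBS 2, and the Kupffer cell and monocyte sums were highest in MCF-10A EV 1. In bulk liver, fewer cells of a type and less RNA per cell cannot be told apart. The summed level of 11 Kupffer cell markers (the resident macrophages) was 2169 TPM in MCF-10A EV 1 and 319 and 376 TPM in the other MCF-10A EV libraries. Its members differed in MCF-10A EV 1: Marco was at 804 TPM and Cd5l at 422 TPM, the highest of the 9 libraries, whereas Clec4f at 0.61 TPM and Folr2 at 4.4 TPM were the lowest. The sum was 585 to 876 TPM after MDA-MB-231 EVs and 319, 700 and 356 TPM after PBS, so that PBS 2 lay below 3 other libraries. The sum of 4 monocyte markers was 207 TPM in MCF-10A EV 1 and 7.94 to 32.9 TPM in the other 8 libraries, with PBS 2 highest among those. Of 8 dendritic cell markers 3 averaged 1 TPM or more, and the sum was 3.93 to 20.7 TPM after MDA-MB-231 EVs, 4.80 to 17.7 TPM after MCF-10A EVs and 3.36 to 11.8 TPM after PBS. It was 7.38 TPM in PBS 2, below 4 other libraries, and the highest was MDA-MB-231 EV 3.

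PBS 2 carried the fat markers, whose sum of 5 genes was 489 TPM there and 11.96 to 24.9 TPM in the other 8 libraries. Fabp4, a fatty acid carrier of adipocytes, was at 162 TPM in it and at most 18.1 TPM elsewhere. Of the B cell markers, Cd79b was at 6.09 TPM in MCF-10A EV 1 and at most 1.53 TPM elsewhere. Ms4a1, Cd79a and Pax5 did not exceed 0.04 TPM in any of the 9, also in PBS 2, where the class II genes were highest. The 7 T and NK cell markers summed to 10.2 TPM in MCF-10A EV 1, of which Nkg7, a granule protein of cytotoxic cells, made 8.63 TPM, and to at most 2.33 TPM elsewhere. Cd3d, a chain of the T cell receptor complex, was at 0.75 TPM in MCF-10A EV 1 and 0.95 TPM in MCF-10A EV 3. The part of the Kupffer cell, monocyte, dendritic cell and fat markers in the class II levels was not tested.

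**Figure D4:**
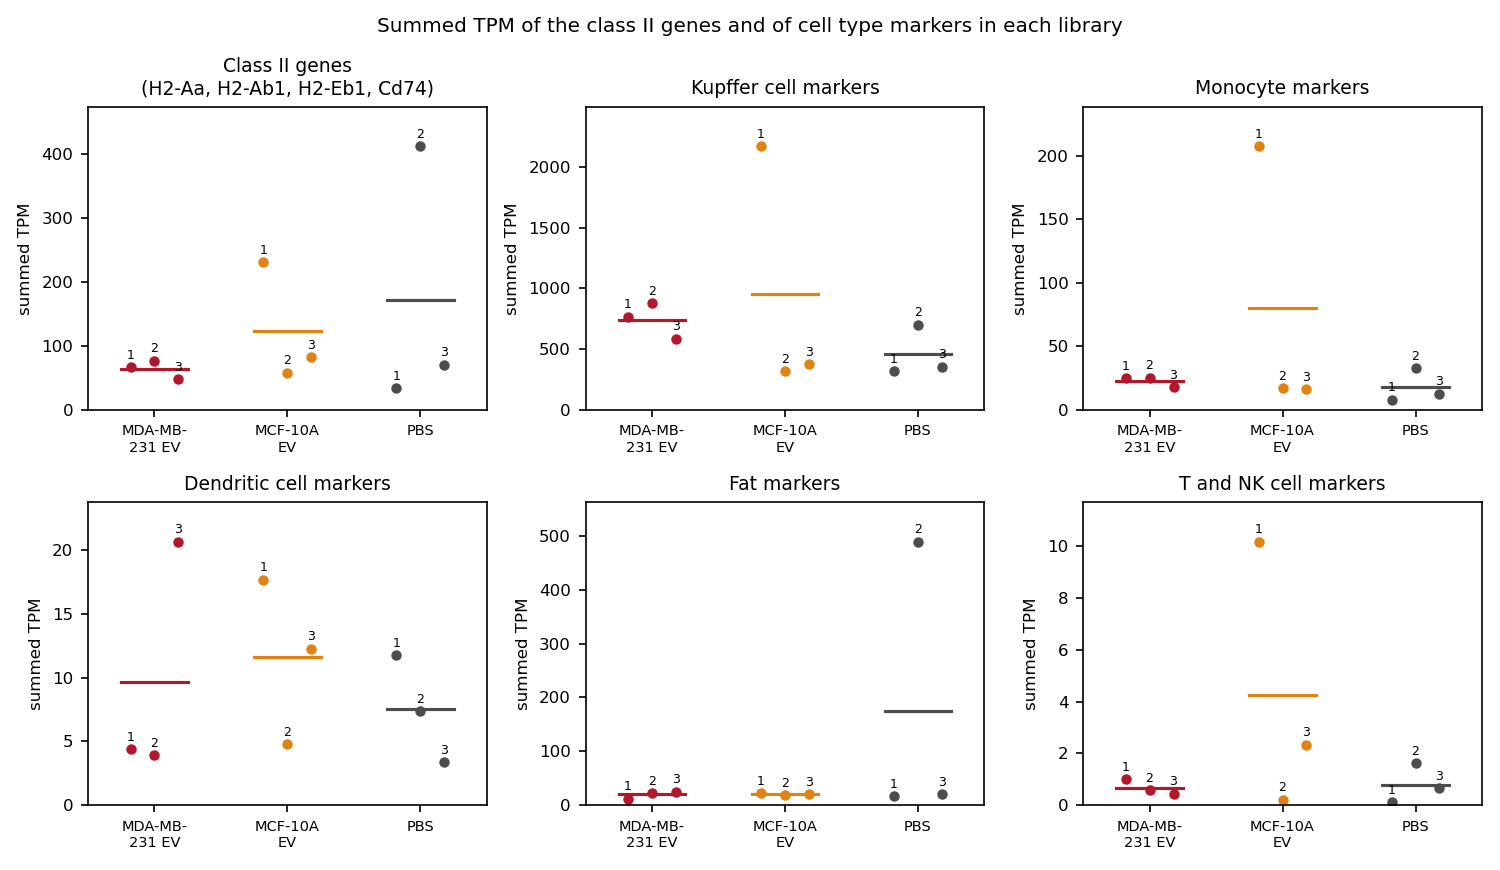
Summed TPM (linear axes from 0) of the 4 class II genes and of 5 marker lists in each library, with library numbers and a bar at the group mean. The class II sum is highest in PBS 2 (412 TPM), where the fat markers sum to 489 TPM, and next in MCF-10A EV 1 (231.5 TPM), where the Kupffer cell markers sum to 2169 TPM.

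Relations between the genes over the libraries were computed for 6 pairs, with exact permutation p over pairings. B2m and H2-K1 moved together over the 9 libraries (Pearson r = 0.947, exact permutation p = 9.37e-05, Benjamini-Hochberg adjusted over the 6 pairs 0.000562; Spearman rho = 0.967, p = 0.000165, adjusted 0.00099). Without MDA-MB-231 EV 1 and 3, farthest from the median of B2m, r was 0.897, and on residuals from the group means it was 0.928. B2m and Tap1 did not show such a relation (r = -0.465, exact permutation p = 0.205; rho = -0.4, p = 0.291). For Cd74 the libraries PBS 2 and MCF-10A EV 1 lie apart, so r is given over the other 7. It was 0.66 with H2-Aa (exact permutation p = 0.0927, adjusted 0.139), 0.667 with H2-Ab1 (p = 0.0925, adjusted 0.139) and 0.794 with H2-Eb1 (p = 0.0333, adjusted 0.0999), with rho of 0.679, 0.643 and 0.75. Over these 7 libraries none of the 3 passed after adjustment over the 6 pairs. With Ciita r over the 7 was -0.116 (exact permutation p = 0.785; rho -0.286). All values of a library share its scaling.

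By likeness of pattern, the genes nearest to the mean of the 4 class II genes, among 7193 other genes averaging 5 TPM or more and not named as predicted genes (Gm or Rik), were Cib2, Ube2v2, Mir1291, Akr1b7 and Spp1, with Pearson r over the 9 libraries between 0.891 and 0.946. Each had its 2 highest values in MCF-10A EV 1 and PBS 2, which a choice by likeness to these genes favours. Mir1291 was at 34.5 TPM in MCF-10A EV 1, at 18.5 TPM in PBS 2 and at 0 elsewhere. It thus passed the minimum of 5 TPM through those 2 libraries alone. Spp1, the secreted phosphoprotein osteopontin, was at 125 TPM in MCF-10A EV 1 and 113 TPM in PBS 2, and between 19.96 and 61.2 TPM elsewhere. Nearest to the mean of H2-K1, H2-D1, B2m, Tap1 and Tapbp were Tmed1, Snx3, Hspa8, Vapa and Apon, with r between 0.883 and 0.945. Hspa8, the constitutive heat shock protein, was lowest in MDA-MB-231 EV 3, at 291 TPM, and highest in MDA-MB-231 EV 2, at 835 TPM.

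Of the other class I heavy chains all 15 tested had a log2 change above 0 for MDA-MB-231 EV versus PBS, and none passed (limma adjusted p = 1). Of 19 listed genes 18 were in the table and 15 averaged 1 TPM or more. Their median log2 change was 0.58 beside 0.21 over all tested genes, and 14 of 15 were above that median. The list's median ran between 0.37 with MDA-MB-231 EV 1 left out and 0.95 with MDA-MB-231 EV 3 left out, and from 0.45 to 0.59 over 3 other scalings. The Kupffer cell markers were also above 0 in 11 of 11 there, with a median of 0.78, and their part in the heavy chain values was not tested. In 4 of 15 heavy chains every MDA-MB-231 EV library lay above every PBS library, a pattern of 5.23% of all tested genes. H2-Q6, a nonclassical heavy chain, was at 79.3, 58.5 and 55.9 TPM after MDA-MB-231 EVs and at 39.2, 25.8 and 17.9 TPM after PBS, a log2 change of 1.25 ± 0.55 (limma unadjusted p = 0.0475, adjusted p = 1). The MCF-10A EV libraries held 60.8, 13.9 and 16.99 TPM of it, and it had the smallest unadjusted p of the heavy chains there too (MDA-MB-231 EV versus MCF-10A EV 1.34 ± 0.55, limma unadjusted p = 0.0349, adjusted p = 1). Hfe, the class I-like regulator of iron uptake, was at 29.1, 24.4 and 24.1 TPM after MDA-MB-231 EVs and at 12.8, 13.9 and 13.2 TPM after PBS (0.90 ± 0.45, limma adjusted p = 1). After MCF-10A EVs it was at 39.45, 12.71 and 12.95 TPM, and MCF-10A EV 1 was its highest library.

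H2-Q10, a secreted class I chain made by hepatocytes, was at 1040, 1276 and 811 TPM after MDA-MB-231 EVs and at 613, 741 and 706 TPM after PBS (0.58 ± 0.38). After MCF-10A EVs it was at 1001, 750 and 718 TPM. H2-Q4 was the other gene without overlap, but its closest pair was 21.09 TPM in MDA-MB-231 EV 2 and 21.06 TPM in PBS 2. Cd1d1, which presents lipids, was at 182, 72.8 and 51.0 TPM after MDA-MB-231 EVs and at 35.0, 52.2 and 52.2 TPM after PBS (0.93 ± 0.49). After MCF-10A EVs Cd1d1 was at 60.7, 38.6 and 48.6 TPM. For MDA-MB-231 EV versus PBS H2-Q2 had 0.82 ± 0.52. H2-T23, which encodes the chain of Qa-1, ranged widely, at 89.0, 56.1 and 8.44 TPM after MDA-MB-231 EVs, at 48.5, 4.22 and 4.86 TPM after MCF-10A EVs and at 9.21, 26.3 and 15.3 TPM after PBS. It was high in the same 3 libraries as H2-D1. Set beside MCF-10A EV, 13 of 15 heavy chains had a change of MDA-MB-231 EV above 0, with a median of 0.39 beside 0.17 that was 0.12 without MDA-MB-231 EV 1, 0.89 with array weights and 0.82 when MCF-10A EV 1 was left out. For MCF-10A EV versus PBS 12 of 15 did, with a median of 0.25 beside 0.07 that turned to -0.14 with array weights and -0.069 without MCF-10A EV 1. None passed.

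Of the peptide supply and loading genes 8 of 11 had a change above 0 for MDA-MB-231 EV versus PBS, and 4 lay above 0.21, the median over all tested genes. The list's own median was 0.13, and it turned to -0.13 under quantile normalization and ran between -0.027 without PBS 1 and 0.54 without MDA-MB-231 EV 3. Erap1, which trims peptides in the endoplasmic reticulum, had a log2 change of 1.07 ± 0.70, with 30.5 TPM in MDA-MB-231 EV 1 against 5.63 and 3.03 TPM in the other MDA-MB-231 EV libraries and 2.22, 5.39 and 3.38 TPM after PBS. The chaperone Canx had 1.11 ± 0.84 and the tapasin relative Tapbpl 0.63 ± 0.52. Psmb9, a subunit of the immunoproteasome, had no overlap in the other direction: it was at 13.2, 14.1 and 11.6 TPM after MDA-MB-231 EVs, below all MCF-10A EV libraries (21.99, 17.4 and 14.2 TPM) and all PBS libraries (15.5, 21.2 and 16.2 TPM). Its change of -0.41 ± 0.34 against PBS did not pass (limma adjusted p = 1), and the limit from its overlap with Tap1 applies here too. Without overlap in either direction were 6.03% of all tested genes against PBS and 6.53% against MCF-10A EV. Against PBS most of these lay opposite to Psmb9, with 5.23% of all tested genes higher in every MDA-MB-231 EV library. Psme2 of this list had MCF-10A EV libraries (207, 221 and 270 TPM) above all others. It was at 121, 191 and 170 TPM after MDA-MB-231 EVs and at 171, 166 and 173 TPM after PBS. Set beside MCF-10A EV, 4 of 11 genes of this list had a change of MDA-MB-231 EV above 0 (median -0.08, and 0.06 without MDA-MB-231 EV 3). For MCF-10A EV versus PBS all 11 did, with a median of 0.32 beside 0.07, and none passed. That median was -0.0013 with array weights and ran between 0.13 without PBS 1 and 0.57 without PBS 2.

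Among class I regulators and interferon gamma targets 4 of 12 had a change above 0 for MDA-MB-231 EV versus PBS, with a median of -0.03 beside 0.21 that was -0.31 without MDA-MB-231 EV 1 and turned to 0.27 without MDA-MB-231 EV 3. Irf2, an interferon regulatory factor, had -0.58 ± 0.57, the interferon gamma receptor chains Ifngr1 and Ifngr2 had 0.56 ± 0.60 and 0.40 ± 0.54, and Irf9 -0.33 ± 0.50. Nlrc5 was at 12.7, 1.38 and 21.8 TPM after MDA-MB-231 EVs, at 9.74, 6.03 and 10.4 TPM after MCF-10A EVs and at 22.2, 6.42 and 6.13 TPM after PBS. It was highest in MDA-MB-231 EV 3 and PBS 1, where H2-D1 was lowest, at 257 TPM in MDA-MB-231 EV 3 and 230 TPM in PBS 1. Rfxank (22.2 and 16.1 TPM) and Nfyc (32.6 and 31.2 TPM), factors of class II promoters, were also highest in these libraries, in this order. Any relation of Nlrc5 to H2-D1 was not tested. Set beside MCF-10A EV, 1 of 12 genes had a change of MDA-MB-231 EV above 0, with a median of -0.30 beside 0.17 that was 0.049 with array weights and 0.021 without MCF-10A EV 1. For MCF-10A EV versus PBS 10 of 12 did, with a median of 0.26 beside 0.07 that was -0.025 without MCF-10A EV 1. None passed.

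Of 13 other class II chains, chaperones and proteases 8 averaged 1 TPM or more, and H2-Ea was listed at 0 in all 9 libraries. H2-DMa, a chain of the peptide editor H2-DM, was at 7.38 TPM in MCF-10A EV 1 and 8.83 TPM in PBS 2 and at most 4.16 TPM elsewhere, and H2-DMb2 was at 9.50 TPM in MCF-10A EV 1 and 13.2 TPM in PBS 2 and at most 4.14 TPM elsewhere. They shared their 2 highest libraries with the class II chains. H2-DMb1, with a mean under 1 TPM, did not. It was at 4.41 TPM in MCF-10A EV 1, at 1.43 TPM in MCF-10A EV 3 and at 0.32 TPM in PBS 2. The proteases did not share both libraries either. The cathepsin genes Ctss and Ctsl were at 136 and 536 TPM in MCF-10A EV 1, at 33.7 and 216 TPM in PBS 2, and at 42.5 and 712 TPM in MDA-MB-231 EV 1. For MDA-MB-231 EV versus PBS 5 of 8 were above 0 with a median of 0.38, and the changes of those with the smallest p were 1.38 ± 0.98 for Ctsl, 0.99 ± 0.89 for the endopeptidase Lgmn, -0.48 ± 0.51 for H2-DMa and 0.46 ± 0.58 for the thiol reductase Ifi30. Without PBS 1 the median was -0.08. Set beside MCF-10A EV, 3 of 8 had a change of MDA-MB-231 EV above 0 (median -0.12, and 0.55 without MCF-10A EV 1). For MCF-10A EV versus PBS 5 of 8 did (median 0.66, and -0.34 without MCF-10A EV 1).

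Of 10 factors that bind class II promoters and costimulatory genes 8 were tested, and 6 had a change above 0 for MDA-MB-231 EV versus PBS. Their median was 0.06; it was -0.068 under quantile normalization, -0.029 without PBS 2 and 0.39 without MDA-MB-231 EV 2. The changes were 0.59 ± 0.51 for Creb1, 0.36 ± 0.40 for Nfyb, -0.18 ± 0.35 for Rfxap and 0.17 ± 0.45 for Nfya. Set beside MCF-10A EV, 7 of 8 had a change of MDA-MB-231 EV above 0 (median 0.27, and 0.0083 without MDA-MB-231 EV 3), and 2 of 8 did for MCF-10A EV versus PBS (median -0.19, and -0.34 without MCF-10A EV 1). None of these or of the other class II genes passed in any comparison (limma adjusted p = 1). The costimulatory gene Cd86 was at 4.03 TPM in MCF-10A EV 1 and at 2.10 TPM in PBS 2, below the 2.56 TPM of MDA-MB-231 EV 3. Cd80 and Cd40 had means under 1 TPM.

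**Figure D5:**
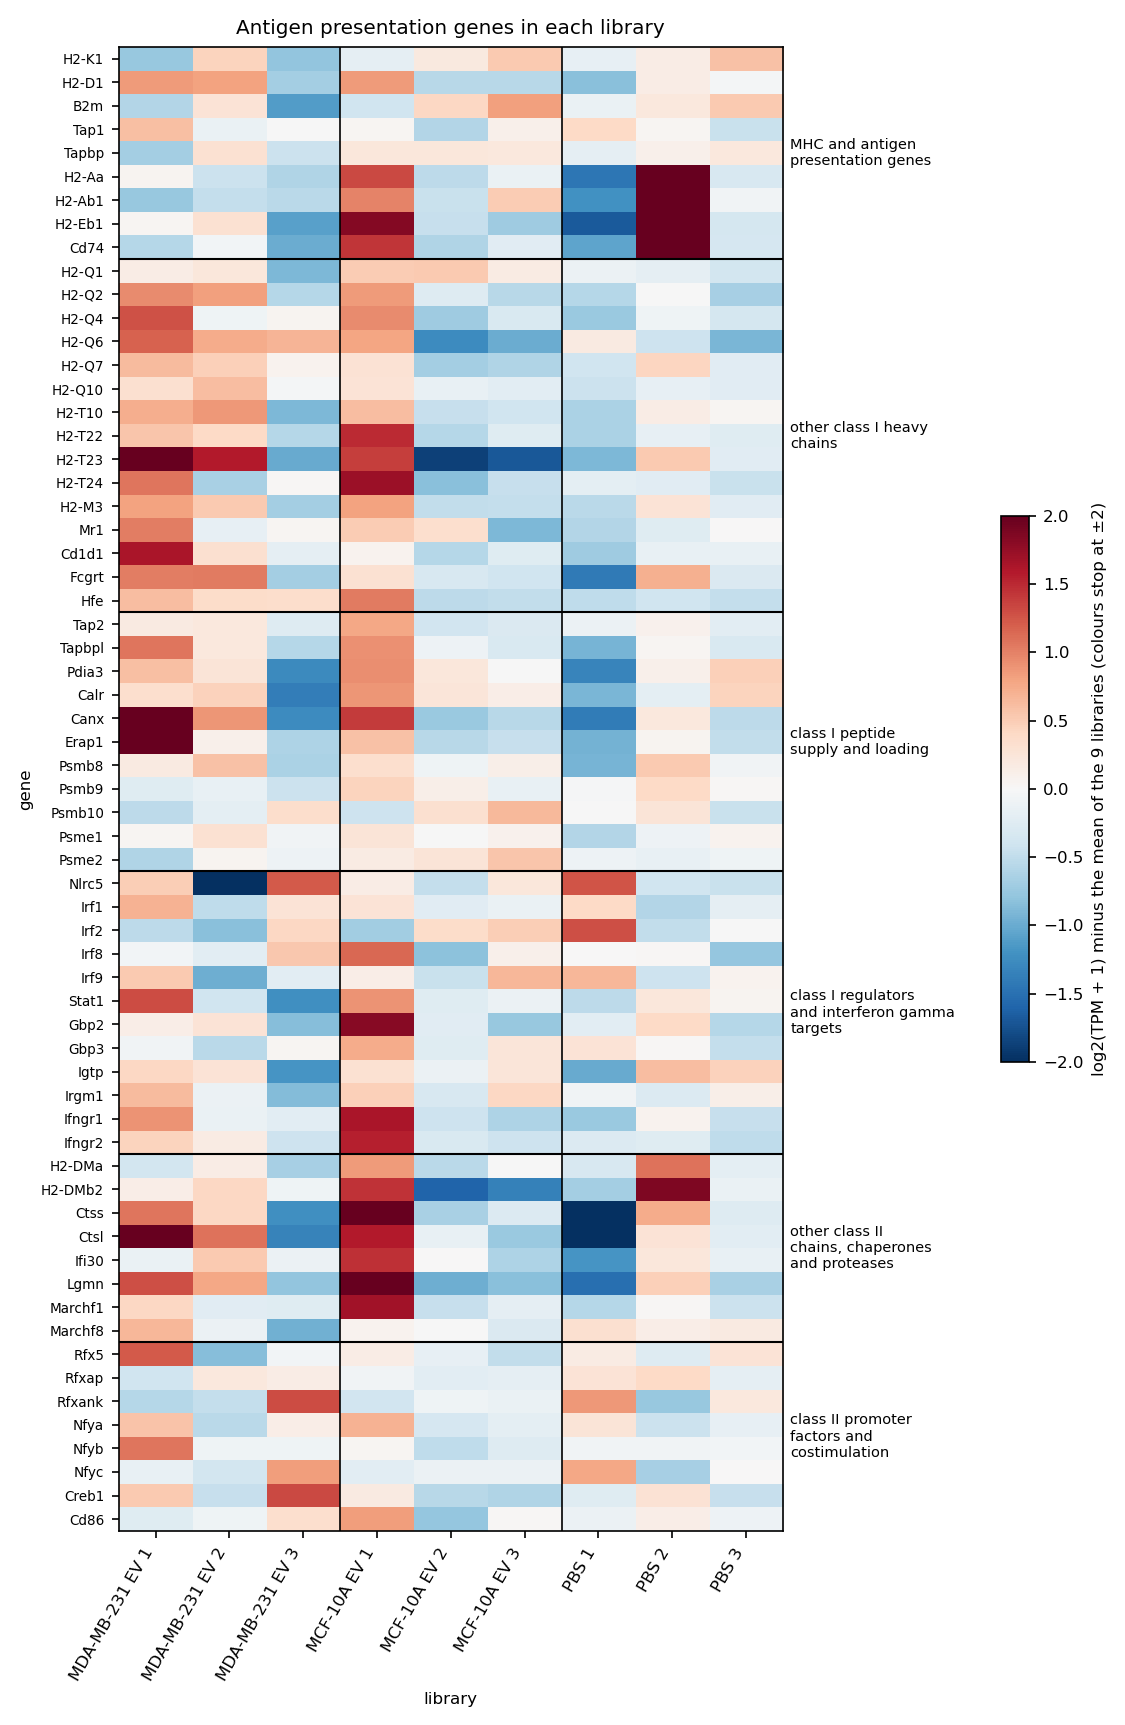
Log2(TPM + 1) minus the mean of the 9 libraries (colour, stopping at ±2) for the 9 tested genes and the tested genes of 5 related lists (rows) in each library (columns); vertical lines part the groups. The class II genes are red in PBS 2 and MCF-10A EV 1, and most other class I heavy chains are red in MDA-MB-231 EV 1, MDA-MB-231 EV 2 and MCF-10A EV 1.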

How the data were processed

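The submitters' processing notes name HISAT2, StringTie and RSEM and the build GRCm39; versions and order are not given in the sources used here. Total RNA went into TruSeq RNA libraries, per the labels' protocols. The TPM deposited by the authors were used as they are. Their MCF-10A EV columns sum to between 934986 and 979351 and the others to between 999999.5 and 1000000.5; assembled loci, at 0 in all MCF-10A EV libraries, were left out. Of the Ensembl features, those averaging 1 TPM or more entered a fit in limma 3.58.1 (R 4.3.3) of log2(TPM + 1) on group over the 9 libraries, with eBayes trend, two-sided p-values and Benjamini-Hochberg adjustment over all 12860 features of a comparison and a threshold of 0.05. Fold changes on this scale understate the change of low genes. The fit was tested on simulated data.

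The 10 genes, the related lists and the tests were chosen with earlier results of these data known, and list medians under the alternatives were added after seeing the data. All 10 genes are given; from each related list the 4 genes with the smallest p in MDA-MB-231 EV versus PBS are named, and others were chosen after their values were seen. One marker gene is not reported here. Genes most alike in pattern were the 5 of highest Pearson r. Motifs and GENCODE M21 positions refer to GRCm38. Alternatives covered scaling, pseudocount, filter, features, libraries, weights and a replicate block.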

Additional observations from a re-analysis of the deposited data

How the results depend on the processing

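No alternative brought any of the 9 tested genes past the threshold: over 540 values from 20 alternatives for 27 results the lowest limma adjusted p was 0.452. The direction held in 494 of them and turned in 46, and the cause was not tested. Depth is unknown, and with 3 libraries per group the intervals allow changes of either sign.

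Values that turned in MCF-10A EV versus PBS were 0.032 for H2-K1 with TPM rescaled over Ensembl features, -0.031 for B2m with TPM rescaled without mitochondrially encoded genes, and -0.019 for H2-D1 and 0.0043 for Cd74 under quantile normalization. With array weights they were -0.43 for H2-D1, 0.22 for Tap1, -0.16 for H2-Aa and -0.42 for H2-Eb1. Without both PBS 1 and MDA-MB-231 EV 3 they were -0.13 for H2-D1, -0.086 for B2m, 0.058 for Tap1, -0.67 for H2-Aa, -0.61 for H2-Ab1 and -0.66 for H2-Eb1. Elsewhere Tap1 turned to -0.062 under quantile normalization and H2-Eb1 to 0.018 with array weights in MDA-MB-231 EV versus PBS, and H2-Eb1 to 0.44 with array weights in MDA-MB-231 EV versus MCF-10A EV.

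Leaving out 1 library at a time gave these ranges for the genes whose direction turned. In MDA-MB-231 EV versus PBS they were -0.066 to 0.36 for Tap1, -1.13 to 0.76 for H2-Eb1, -1.21 to 0.55 for H2-Aa, -1.55 to 0.051 for H2-Ab1 and -1.57 to 0.16 for Cd74. In MDA-MB-231 EV versus MCF-10A EV they were -0.92 to 0.0088 for H2-Aa and -0.94 to 0.34 for H2-Eb1. In MCF-10A EV versus PBS they were -0.18 to 0.19 for H2-K1, -0.31 to 0.40 for H2-D1, -0.67 to 1.09 for H2-Aa, -0.61 to 0.99 for H2-Ab1, -0.66 to 1.23 for H2-Eb1, -0.37 to 0.075 for Tap1, -0.83 to 0.90 for Cd74 and -0.19 to 0.42 for B2m. Of the genes whose direction held, the ranges were for MDA-MB-231 EV versus PBS -0.95 to -0.34 for H2-K1, 0.28 to 1.07 for H2-D1, -1.05 to -0.36 for B2m and -0.60 to -0.11 for Tapbp; for MDA-MB-231 EV versus MCF-10A EV -0.95 to -0.34 for H2-K1, 0.15 to 0.91 for H2-D1, -1.13 to -0.44 for B2m, 0.08 to 0.45 for Tap1, -0.77 to -0.28 for Tapbp, -1.34 to -0.62 for H2-Ab1 and -1.14 to -0.12 for Cd74; for MCF-10A EV versus PBS 0.068 to 0.26 for Tapbp.

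The number of genes called over the whole table depended on the setting. With 1 library left out it ran over 0 to 24 in MDA-MB-231 EV versus PBS (main value 0; 24 without PBS 1 and 5 without MDA-MB-231 EV 3), 13 to 31 in MDA-MB-231 EV versus MCF-10A EV (28) and 14 to 59 in MCF-10A EV versus PBS (25; 59 without MDA-MB-231 EV 3 and 54 without PBS 1). Without both PBS 1 and MDA-MB-231 EV 3 it was 28 in MDA-MB-231 EV versus PBS and 85 in MCF-10A EV versus PBS. The 2 numbers that follow are for MDA-MB-231 EV versus MCF-10A EV and MCF-10A EV versus PBS: 11 and 12 with no filter, 205 and 257 with assembled loci, 11 and 48 with only the 2 groups compared, and 46 and 548 with array weights. A pseudocount of 0.1 gave 40 in each of these comparisons, and a minimum of 5 TPM gave 17 in MDA-MB-231 EV versus MCF-10A EV. Same-numbered libraries deviated from their group means with r between -0.389 and 0.5. Between the EV groups this r was 0.336, 0.11 and 0.436 for numbers 1, 2 and 3. Differently numbered libraries of these groups had r between -0.337 and 0.116. Same-numbered PBS libraries had r of -0.284, 0.5 and -0.389 to MDA-MB-231 EV and of -0.206, -0.0897 and -0.158 to MCF-10A EV. For differently numbered PBS libraries r ran from -0.595 to 0.625 to MDA-MB-231 EV and from -0.336 to 0.355 to MCF-10A EV. The highest r of all, 0.625, was thus between MDA-MB-231 EV 3 and PBS 1, which differ in number. Whether the numbers pair the libraries was not tested. With the number as a replicate block the counts were 0, 15 and 20 in the 3 comparisons. Rescaling without mitochondrially encoded genes moved the median of all genes in MDA-MB-231 EV versus PBS to 0.099, where it was 0.21, and quantile normalization moved it to 0.035 and that in MDA-MB-231 EV versus MCF-10A EV to -0.0023, where it was 0.17.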
